A study of Mus musculus with 10 samples.

Results

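Periostin (*Postn*) and 8 further genes of leptomeningeal and other fibroblasts, *Dcn*, *Lum*, *Ogn*, *Fmod*, *Igf2*, *Igfbp2*, *Slc6a13* and *Aldh1a2*, were followed in tissue of the prefrontal cortex (PFC) from WT mice and *Zbtb16* KO mice. These are 9 of the 22000 genes in the count table, and all 9 passed the filter on low counts. They were chosen by name as a group, with earlier results of these same mice known, including that *Postn* was higher in KO mice. Their KO against WT values and their variation between mice are therefore given as a description, without p-values. The questions were whether the 9 genes rise and fall together from mouse to mouse, and whether they differ between KO and WT mice.

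The leptomeninges are the thin membranes that cover the brain, and their fibroblasts also follow blood vessels into the tissue. These cells build a collagen-rich matrix, secrete growth factors and morphogens, and take part in exchange between cerebrospinal fluid and brain. Of the 9 genes, *Dcn* (decorin), *Lum* (lumican), *Ogn* (osteoglycin) and *Fmod* (fibromodulin) encode small leucine-rich proteoglycans, which bind collagen and shape its fibrils. *Igf2* encodes an insulin-like growth factor and *Igfbp2* a protein that binds such factors. *Slc6a13* encodes the GABA and taurine transporter GAT2, known in brain from the leptomeninges, and *Aldh1a2* encodes the retinaldehyde dehydrogenase that makes retinoic acid there. *Postn* encodes a matricellular protein that binds integrins and collagen and is widely known as a target of TGF-beta signalling in fibroblasts.

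RNA-seq libraries were made from the PFC of 5 *Zbtb16* KO mice and 5 WT mice, 1 library per mouse, all 7 weeks old and labelled male. KO mice carried the *lu* allele of the B6.C3-*Zbtb16* lu/J line, a spontaneous nonsense point mutation present in every cell, so KO mice also differ from WT mice in body and brain size. No treatment is described. The methods describe littermates of heterozygous crosses for the behavioural tests, and do not say which litters the sequenced mice came from.

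The libraries held 30220122 to 51231439 counts each. The limit that a count of 0 allows, 3 counts, was 0.0586 to 0.0993 CPM (reads of a gene scaled to a common library size), for counting error alone. All levels below are CPM after TMM scaling, a correction for library composition. The targeted gene *Zbtb16* averaged 79.0 ± 7.23 CPM in the WT group and 47.4 ± 4.96 CPM in the KO group (SD, n = 5 each), without overlap. The library labelled KO mouse 3 held 1 count over 4 Y-linked genes, against 4376 to 8182 in the others, which goes against its label as male. It was kept under its genotype label, and the results on *Postn* are given with and without it. RNA integrity numbers (RIN) were 9.5 or above in 6 mice and under 9.5 in 4. Markers of cortical excitatory neurons summed to between 1812 and 2324 CPM in every mouse, which fits the labelled tissue, and no member gene was at 0 in any mouse.

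Stretches before the start sites of 4 members are shown to set the gene that differed most between genotypes, *Postn*, beside *Ogn*, *Fmod* and *Aldh1a2*. These were taken from the members that varied together between mice, and the closest pair of those, *Igf2* with *Igfbp2*, is not shown. Each holds the 250 bases before a RefSeq start in GRCm38.p6, 5′ to 3′ on the plus strand, and capitals mark the motifs searched. The *Postn* stretch is chr3:54360857-54361106, that of *Ogn* chr13:49607765-49608014, that of *Fmod* chr1:134037004-134037253 and that of *Aldh1a2* chr9:71215539-71215788.
Postn: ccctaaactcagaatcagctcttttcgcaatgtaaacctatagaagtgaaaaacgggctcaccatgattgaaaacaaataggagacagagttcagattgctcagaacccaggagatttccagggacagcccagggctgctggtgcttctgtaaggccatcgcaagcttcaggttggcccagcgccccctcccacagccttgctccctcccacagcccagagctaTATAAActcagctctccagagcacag
Ogn: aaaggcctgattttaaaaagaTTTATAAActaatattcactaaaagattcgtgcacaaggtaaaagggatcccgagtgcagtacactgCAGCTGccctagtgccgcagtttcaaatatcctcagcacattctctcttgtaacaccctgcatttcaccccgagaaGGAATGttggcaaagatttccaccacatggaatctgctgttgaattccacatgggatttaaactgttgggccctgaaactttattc
Fmod: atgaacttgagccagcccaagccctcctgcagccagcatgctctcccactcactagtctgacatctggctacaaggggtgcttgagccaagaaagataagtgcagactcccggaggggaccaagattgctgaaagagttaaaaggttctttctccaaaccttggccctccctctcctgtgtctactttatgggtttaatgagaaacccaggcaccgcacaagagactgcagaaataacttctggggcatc
Aldh1a2: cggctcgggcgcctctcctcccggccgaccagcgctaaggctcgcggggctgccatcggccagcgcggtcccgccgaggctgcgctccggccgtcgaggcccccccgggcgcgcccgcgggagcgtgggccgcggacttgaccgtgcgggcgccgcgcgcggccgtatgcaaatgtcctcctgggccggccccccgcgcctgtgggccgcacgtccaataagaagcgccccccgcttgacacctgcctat

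RefSeq promoters were matched for 7 of the 9 members. *Dcn* and *Lum* were not matched. Short motifs were searched on both strands. The TATA box, TATAAA, was held by 12.4% of 32851 promoters of the same length. The GC box, GGGCGG, was held by 32.7% of them and the TEAD motif, GGAATG, by 12.6%. For the forkhead motif, TGTTTAC, the share was 3.17%, for the E-box, CAGCTG, it was 13%, and for the SMAD motif, CAGACA, it was 17.1%. In the *Postn* stretch the capitals mark a TATAAA that begins 26 bases before the start. RefSeq gives *Postn* another start, and the stretch before it, chr3:54359017-54359266, held none of the motifs. The *Ogn* stretch held a TATAAA on either strand, 227 and 229 bases before the start and overlapping each other, a CAGCTG, which reads the same on both strands, 162 bases before it and a GGAATG 86 bases before it. Neither the *Fmod* nor the *Aldh1a2* stretch held any of these letters, and the *Aldh1a2* stretch stood out by its base composition, with 77.6% G or C and 40 CpG sites against 51.2% and 2 for *Fmod*. With none in these stretches, no motif could be held by all 4. Of the members not shown, *Igf2*, *Igfbp2* and *Slc6a13* each held GGGCGG before a RefSeq start. *Igf2* and *Slc6a13* also held GGAATG and CAGACA, and *Slc6a13* held CAGCTG. A match is a description of letters, not of binding.

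Per kilobase of exon, *Igfbp2* was the most expressed member in WT mice, at 15.6 ± 1.31 CPM per kb (SD, n = 5). Next came *Fmod* at 4.03 ± 0.52, *Ogn* at 3.24 ± 0.29 and *Aldh1a2* at 2.22 ± 0.44 CPM per kb (SD, n = 5 each), and each of these steps held in 5 of 5 WT mice. *Slc6a13*, at 1.63 ± 0.34 CPM per kb, and *Dcn*, at 1.56 ± 0.22 CPM per kb, lay within each other's spread. *Lum* was at 0.741 ± 0.13 CPM per kb. The lowest pair, *Igf2* at 0.292 ± 0.065 and *Postn* at 0.284 ± 0.058 CPM per kb, could not be ordered, since *Igf2* was the higher in only 2 of 5 WT mice. In KO mice *Postn* reached 0.638 ± 0.14 CPM per kb, above *Igf2* at 0.314 ± 0.12 in 4 of 5 mice, and it could not be ordered against *Lum* at 0.709 ± 0.26, which was the higher in 2 of 5.

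*Postn* (ENSMUSG00000027750.16, chr3:54361109-54391037 of GRCm38, plus strand) was higher in every KO mouse than in any WT mouse. KO mice 1 to 5 had 4.72, 4.07, 6.69, 5.46 and 6.80 CPM. WT mice 1 to 5 had 2.96, 1.99, 3.07, 2.11 and 2.22 CPM. The highest WT mouse, 3, lay below the lowest KO mouse, 2, and the means were 5.55 ± 1.20 and 2.47 ± 0.51 CPM (SD, n = 5 each), a ratio of 2.25. The log2 fold change was 1.12 (standard error 0.16) in the fit with 3 surrogate variables, covariates that sva derives from the expression matrix to absorb structure not recorded in the labels. Without surrogate variables it was 1.18 (standard error 0.18). Without KO mouse 3 it was 1.03 with surrogate variables and 1.10 without them. *Postn* correlated with RIN across mice (r = -0.559 after subtracting genotype means, n = 10), and its levels are given by RIN class. Among mice with a RIN of 9.5 or above, the 3 KO mice lay between 4.07 and 5.46 CPM and the 3 WT mice between 1.99 and 2.96 CPM. Among the mice with a lower RIN, the 2 KO mice were at 6.69 and 6.80 CPM and the 2 WT mice at 2.11 and 3.07 CPM. With no overlap over all 10 mice, none was possible within either class, so nothing on RIN is read from these classes.

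**Figure D1:**
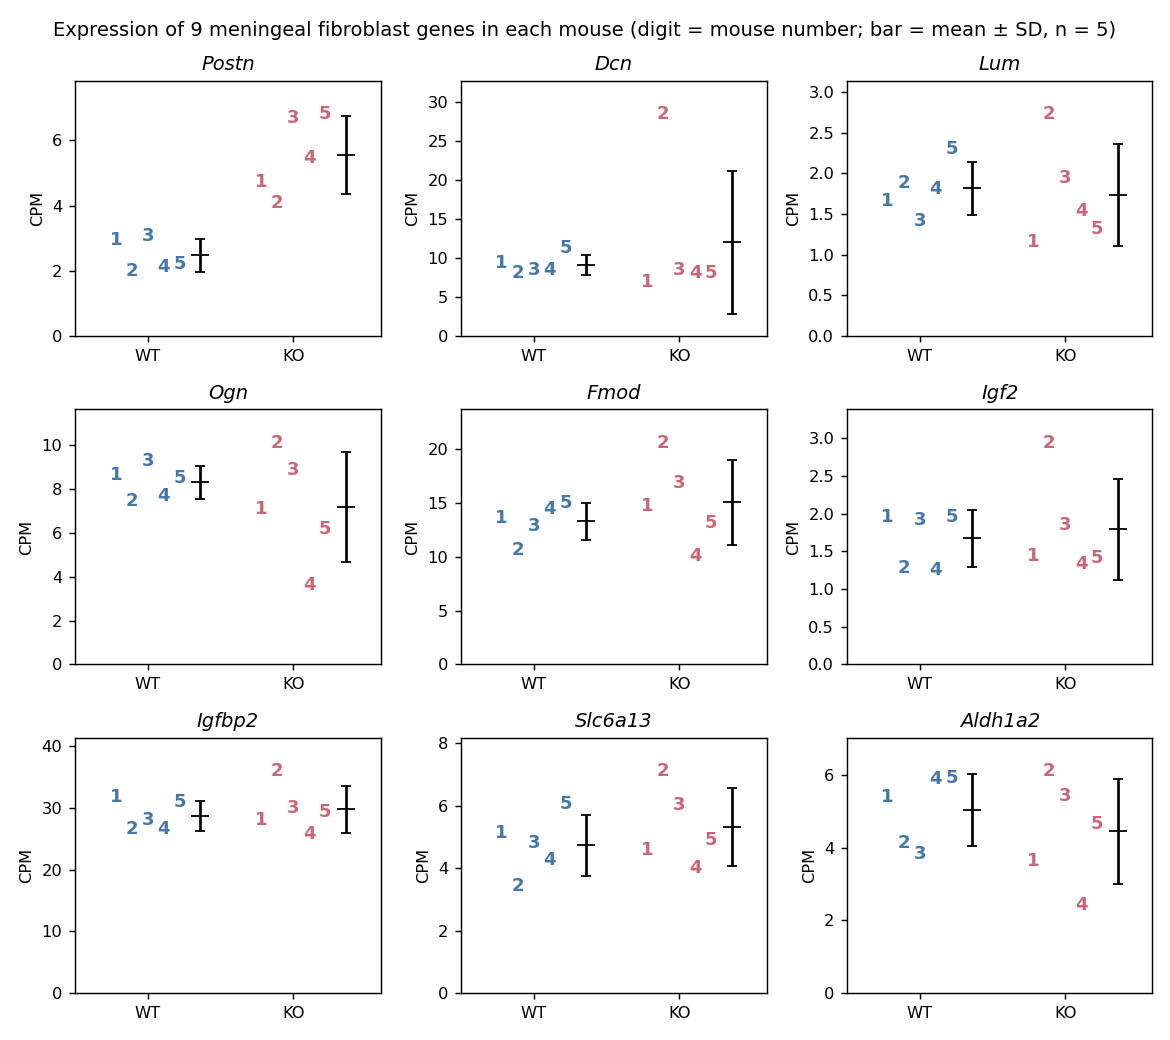
CPM of each member gene in each mouse, with WT mice in blue and KO mice in red. Each digit is 1 mouse by its number, black bars are the mean ± SD of 5 mice, and axes start at 0. *Postn* separates the genotypes, while KO mouse 2 is the highest of all mice for each of the other 8 genes.

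The 4 proteoglycan genes overlapped between genotypes. *Dcn* (ENSMUSG00000019929.16, chr10:97479609-97518143, plus strand) encodes a proteoglycan that binds collagen and TGF-beta. It was at 6.89, 28.4, 8.48, 8.03 and 8.10 CPM in KO mice 1 to 5, and at 9.40, 8.04, 8.40, 8.48 and 11.2 CPM in WT mice 1 to 5. KO mouse 2 alone carried the higher KO mean, being 3.61 times the mean of the other KO mice. The means were 12.0 ± 9.20 and 9.11 ± 1.29 CPM (SD, n = 5 each), but 7.87 ± 0.69 CPM in KO mice without mouse 2 (SD, n = 4). The log2 fold change of *Dcn* changed sign with the model, from -0.10 (standard error 0.15) with surrogate variables to 0.39 (standard error 0.32) without them. Without KO mouse 2 it was -0.26 and -0.21 in these fits.

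*Lum* (ENSMUSG00000036446.5, chr10:97565128-97572703, plus strand), the neighbour of *Dcn* and a regulator of collagen fibril spacing, had 41 to 90 counts per mouse. Its levels were 1.16, 2.72, 1.94, 1.54 and 1.31 CPM in KO mice 1 to 5, and 1.66, 1.89, 1.41, 1.81 and 2.30 CPM in WT mice 1 to 5. KO mice held both the highest value, in mouse 2, and the lowest, in mouse 1, and the log2 fold change was -0.21 (standard error 0.23). *Ogn* (ENSMUSG00000021390.6, chr13:49608046-49624501, plus strand) encodes osteoglycin, also called mimecan. It was at 7.09, 10.1, 8.88, 3.60 and 6.17 CPM in KO mice 1 to 5, and at 8.64, 7.46, 9.30, 7.67 and 8.50 CPM in WT mice 1 to 5. WT mice were tightly grouped while KO mice ran from well below them to above them. The log2 fold change was -0.39 (standard error 0.16) with surrogate variables and -0.22 (standard error 0.20) without. *Ogn* lies inside *Cenpp* on the opposite strand but shares 0 exon bases with it.

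*Fmod* (ENSMUSG00000041559.7, chr1:134037254-134048277, plus strand), which encodes a keratan sulfate proteoglycan of collagen fibrils, had the highest level per kb of the 4. It was at 14.7, 20.6, 16.8, 10.1 and 13.1 CPM in KO mice 1 to 5, and at 13.7, 10.6, 12.9, 14.5 and 15.0 CPM in WT mice 1 to 5. Again the KO mice enclosed the WT range, with mouse 2 at the top and mouse 4 at the bottom. The log2 fold change was 0.03 (standard error 0.12).

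Levels of the IGF genes were close in the genotypes. *Igf2* (ENSMUSG00000048583.16, chr7:142650766-142666816, minus strand) had 45 to 94 counts per mouse. KO mice 1 to 5 had 1.44, 2.94, 1.85, 1.33 and 1.41 CPM and WT mice 1 to 5 had 1.96, 1.28, 1.92, 1.25 and 1.96 CPM. KO mouse 2 was again the highest, and the log2 fold change was -0.11 (standard error 0.26). *Igf2* shares 3596 exon bases with *Gm49394* on the same strand and 98 with *Igf2os* on the opposite strand, so reads could be lost or divided between these genes and its level is uncertain. *Igfbp2* (ENSMUSG00000039323.18, chr1:72824503-72852474, plus strand), with 872 to 1516 counts per mouse, was the most precisely counted member. Its levels were 28.1, 36, 30.1, 25.7 and 29.3 CPM in KO mice 1 to 5, and 31.7, 26.6, 28, 26.5 and 30.9 CPM in WT mice 1 to 5. The means of *Igfbp2* were 29.8 ± 3.81 and 28.8 ± 2.42 CPM (SD, n = 5 each), and the log2 fold change was -0.01 (standard error 0.08).

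*Slc6a13* (ENSMUSG00000030108.14, chr6:121300227-121337733, plus strand), the GAT2 transporter gene, was at 4.57, 7.11, 6.01, 4.02 and 4.89 CPM in KO mice 1 to 5. WT mice 1 to 5 had 5.12, 3.44, 4.82, 4.25 and 6.06 CPM. The ranges overlapped over most of their length, and the log2 fold change was 0.0038 (standard error 0.16). *Aldh1a2* (ENSMUSG00000013584.5, chr9:71215789-71296243, plus strand), the retinoic acid synthesis gene, was at 3.64, 6.11, 5.43, 2.42 and 4.64 CPM in KO mice 1 to 5. WT mice 1 to 5 had 5.38, 4.13, 3.83, 5.89 and 5.92 CPM. KO mouse 4 was the lowest of all 10 mice and KO mouse 2 the highest, and the log2 fold change was -0.41 (standard error 0.20) with surrogate variables and -0.18 (standard error 0.21) without.

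Across the 9 genes, *Postn* was the 1 member called in the edgeR quasi-likelihood fit over all 14344 tested genes at an adjusted p of 0.05, in which 0.802% of genes were called. It was also the 1 member called without surrogate variables, where 0.209% of genes were called. In CPM, *Postn* was the 1 member without overlap between KO and WT mice, against 1.58% of tested genes. Since *Postn* was chosen with this contrast known, nothing is read from these counts. The median log2 fold change of the 9 members was -0.10 with surrogate variables and 0.10 without them, beside -0.0045 and -0.0023 over all tested genes. In the fits that left out each mouse in turn, *Postn* lay between 0.95 and 1.18. *Ogn* and *Aldh1a2* stayed below 0 in these fits, from -0.52 to -0.14 and from -0.72 to -0.16, and the other 6 members had values on both sides of 0. In bulk tissue, fewer cells of a type and less RNA per cell cannot be told apart.

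**Figure D2:**
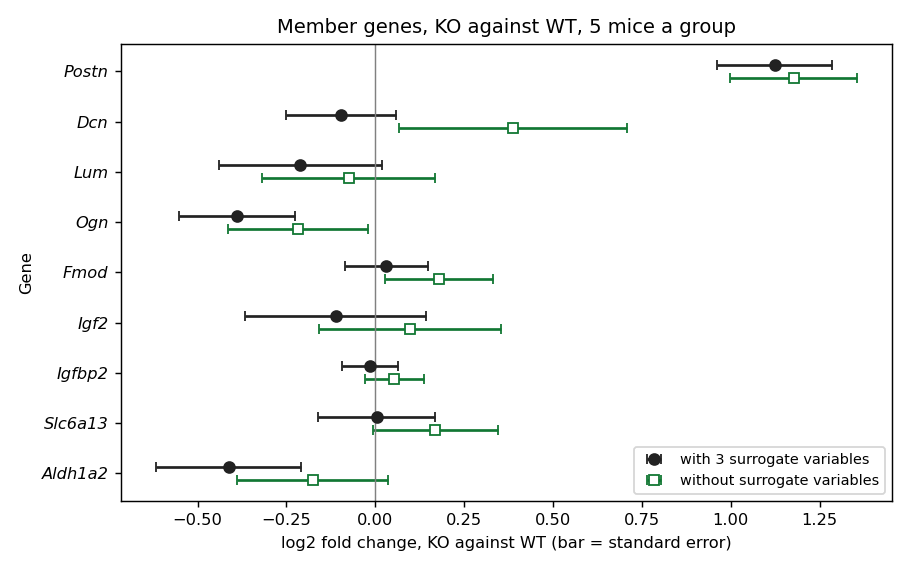
log2 fold change of each member, KO against WT, with standard errors as bars, from fits with 3 surrogate variables (filled circles) and without them (open squares), 5 mice a group. *Postn* lies at 1.12 and 1.18, and the other 8 genes lie between -0.41 and 0.39.

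The 8 members other than *Postn* rose and fell together between mice. Setting *Postn* apart from them was decided after the values were seen. Correlations were taken over the 10 mice on log2(CPM + 1) after subtracting each genotype's mean, and both genes of a pair come from the same libraries. All 28 pairs among the 8 genes were positive, with a median Pearson's r of 0.758 and a range of 0.451 to 0.919 (n = 10). The closest pair was *Igf2* with *Igfbp2*, and the loosest was *Lum* with *Ogn*. Within the proteoglycans, *Ogn* and *Fmod* had an r of 0.890 and the neighbours *Dcn* and *Lum* an r of 0.839. *Fmod* and *Aldh1a2* had an r of 0.882.

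**Figure D3:**
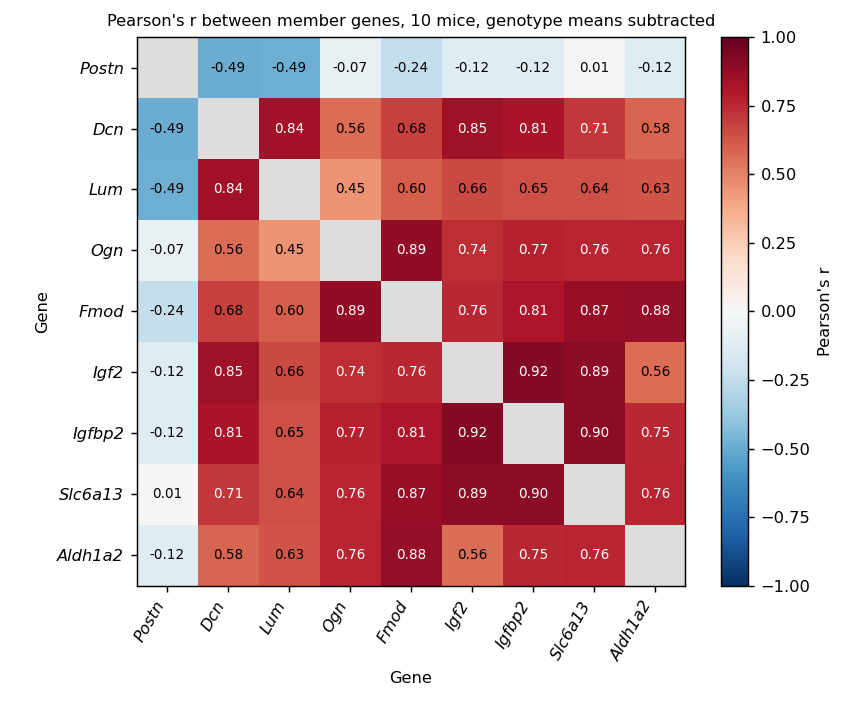
Pearson's r for each of the 36 pairs of member genes over 10 mice, on log2(CPM + 1) with genotype means subtracted. The 28 pairs without *Postn* are all positive (0.451 to 0.919), and the *Postn* row and column hold values from -0.494 to 0.00905.

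*Postn* stood outside this pattern. Its r with the other 8 genes had a median of -0.121 and ran from -0.494 with *Dcn* to 0.00905 with *Slc6a13*, the 1 positive value (n = 10). Against the mean of the 8 other members, each standardised, *Postn* had an r of -0.234. The same measure was 0.936 for *Slc6a13*, 0.927 for *Igfbp2*, 0.881 for *Fmod* and for *Igf2*, 0.804 for *Ogn*, 0.795 for *Aldh1a2*, 0.746 for *Dcn* and 0.646 for *Lum*. *Slc6a13* was thus the member most like the rest.

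Mice at either end carried part of this pattern. KO mouse 2 was the highest of the 10 mice for all 8 genes, and WT mouse 5 was among the highest 3 for 7 of them. KO mouse 4 was the lowest of all for 4 genes and among the lowest 3 for 7. On the mean of the 8 standardised genes these mice lay at 1.84, 0.699 and -1.33, in SD units. For *Postn*, by contrast, KO mouse 2 was the lowest of the KO mice, while WT mouse 5 was in the middle of the WT mice. Without KO mouse 2, all 28 pairs remained positive, with a median r of 0.636 and a lowest value of 0.0608 (n = 9), while the median r of *Postn* with the others turned to 0.332, with 7 of 8 positive. Without both KO mice 2 and 4, the mice farthest from the median, these medians were 0.605 and 0.380 (n = 8). Against the mean of the other members, *Slc6a13* then kept an r of 0.938. The r of each of the rest of the 8 genes fell, to between 0.433 for *Lum* and 0.790 for *Igfbp2*. The sign of the relation of *Postn* to the other 8 genes thus rested on KO mouse 2. The positive sign among the 8 did not, although their relation was weaker without that mouse.

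**Figure D4:**
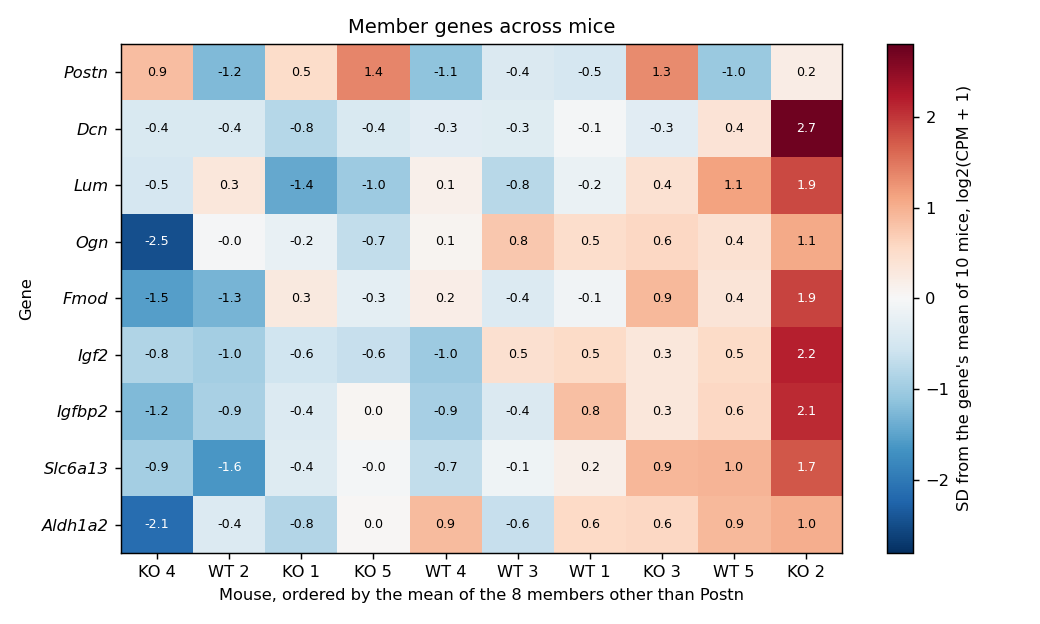
Each member's log2(CPM + 1) in each mouse, in SD units from its mean of the 10 mice, with mice ordered by the mean of the 8 genes other than *Postn*. Those 8 genes change from blue on the left (KO mouse 4) to red on the right (KO mouse 2) with both genotypes in between, and the *Postn* row follows genotype instead.

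The pattern was seen in either genotype. In KO mice alone the median r of the 28 pairs was 0.891 and in WT mice alone 0.593, with 28 and 25 pairs positive (n = 5 each). The medians for *Postn* with the other 8 were -0.400 in KO mice and 0.298 in WT mice. Whether these medians differ between genotypes was not tested. Among the 6 mice with a RIN of 9.5 or above the median of the 28 pairs was 0.894, and among the 4 others it was 0.579, with 23 pairs positive. The mean of the 8 genes had an r of 0.0883 with RIN and of -0.457 with the log2 of total counts (n = 10). It had an r of 0.625 with the second surrogate variable, on which KO mouse 2 had the highest weight, so fits with surrogate variables remove part of this variation and fits without them keep it. The part of library size in the pattern was not tested.

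Other genes of leptomeningeal and perivascular fibroblasts, a list of 35 genes that are not members, showed the same contrast over all mice. Their r was not taken without KO mouse 2, on which the sign of the relation of *Postn* to the 8 members rested. Their r with the mean of the 8 members had a median of 0.672, with 34 of 35 positive and 26 above 0.5, where 9.24% of 14335 tested genes were above 0.5 and 49.8% positive. With *Postn*, the median r of the 35 was -0.0079, with 17 positive and 0 above 0.5, against 12.5% of tested genes. *Bmp6*, a bone morphogenetic protein of the meninges, had an r of 0.946 with the mean of the 8, and *Gjb2*, a connexin gene of leptomeningeal cells, of 0.922. *Cemip*, a gene of hyaluronan breakdown, was the 1 gene of the list with a negative r, -0.152.

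**Figure D5:**
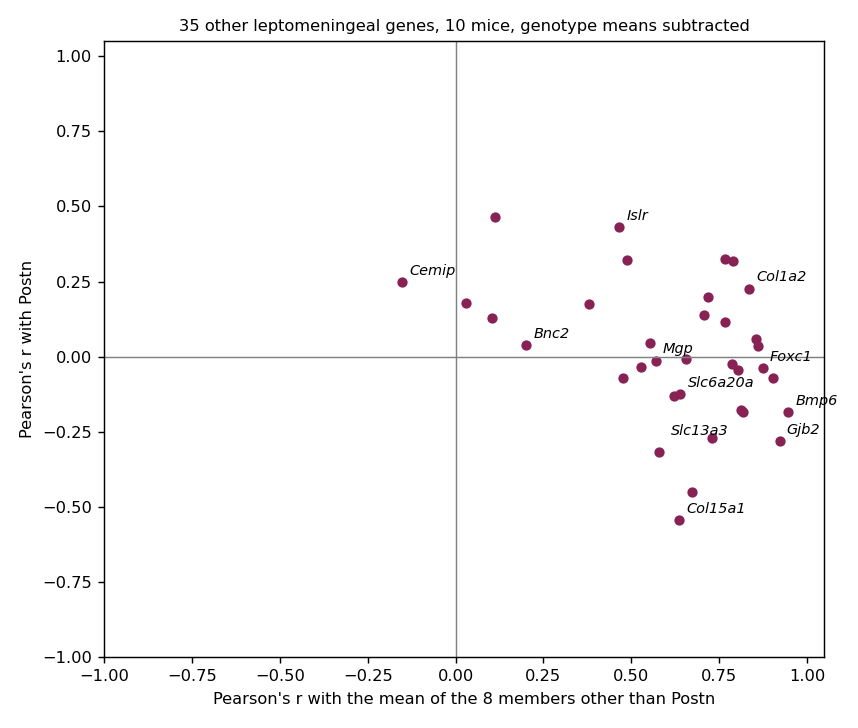
Each point is 1 of 35 other leptomeningeal genes, placed by its Pearson's r with the mean of the 8 members other than *Postn* (horizontal) and with *Postn* (vertical), over 10 mice with genotype means subtracted. Points gather on the right (median 0.672), and around 0 in height (median -0.0079).

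Against genotype, 0 of these 35 genes were called by edgeR at an adjusted p of 0.05, with or without surrogate variables. Of all tested genes, 0.802% were called with surrogate variables and 0.209% without. An unadjusted p under 0.05 was reached by 2 of the 35, beside 10.6% of all tested genes. DESeq2 called 1 of the 35, beside 229 of 14344 tested genes. Their median log2 fold change was -0.10 with surrogate variables (8 above 0 and 27 below) and 0.02 without, where 47.8% of tested genes were above 0. Those highest in CPM, which is not corrected for gene length, were *Cemip* at 32.6 ± 1.73 CPM in KO mice and 31.8 ± 3.12 CPM in WT mice, and the collagen gene *Col1a2* at 17.2 ± 4.65 and 15.6 ± 2.81 CPM (SD, n = 5 each). The calcification inhibitor gene *Mgp* was at 14.9 ± 1.71 and 13.7 ± 3.78 CPM, and the carboxylate transporter gene *Slc13a3* at 14.1 ± 2.95 and 13.8 ± 2.62 CPM. *Islr* was at 12.7 ± 2.05 and 12.6 ± 3.45 CPM, and the amino acid transporter gene *Slc6a20a* at 11.8 ± 1.72 and 12.2 ± 2.20 CPM. All 6 overlapped between the genotypes, with log2 fold changes from -0.17 to 0.05.

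*Col15a1*, a basement membrane collagen gene, was the 1 gene of the list of 35 without overlap, where 1.58% of all tested genes did not overlap. It was singled out after its values were seen, and nothing is read from this count. KO mice 1 to 5 had 3.36, 5.07, 3.45, 4.07 and 3.61 CPM and WT mice 1 to 5 had 5.45, 5.20, 5.19, 5.56 and 6.09 CPM. The fitted difference was -0.57 on the log2 scale (standard error 0.13, edgeR adjusted p 0.0514). Over 22 alternatives the adjusted p of *Col15a1* ran from 0.0165 with DESeq2 to 0.708 in mice with a RIN of 9.5 or above. The latter fit held 6 mice and no surrogate variables. *Col15a1* was called in 3 alternatives. Its r with the mean of the 8 members was 0.636 and with *Postn* -0.544, over all mice with genotype means subtracted. KO mouse 2 was the highest KO mouse for *Col15a1* and for that mean. KO mouse 4, the next highest KO mouse for *Col15a1*, was the lowest on the mean. The r of *Col15a1* without KO mouse 2 was not taken.

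Among genes of the pathways that the members belong to, 1 was called. Of 12 tested genes of the IGF system (14 listed), *Igfbp3*, the gene of an IGF binding protein, was called, higher in KO mice. The other 11 were not called, where 0.802% of all tested genes were. In the same edgeR fit, 4 of the 12 had an unadjusted p under 0.05, beside 10.6% of all tested genes. KO mice 1 to 5 had 13.2, 15.4, 15.3, 17.1 and 26.2 CPM of *Igfbp3* and WT mice 1 to 5 had 11.1, 9.60, 11.02, 9.87 and 12.4 CPM. The genotypes did not overlap, and KO mouse 5 stood highest. The fitted difference of *Igfbp3* was 0.50 on the log2 scale (standard error 0.08, edgeR adjusted p 0.00377). It was called in 16 of 22 alternatives, with adjusted p from 1.72e-05 with DESeq2 to 0.415 in mice with a RIN of 9.5 or above. The latter fit held 6 mice and no surrogate variables, so RIN, fewer mice and the model cannot be told apart in it. Without surrogate variables the fitted difference was 0.70 on the log2 scale and its adjusted p in edgeR's test was 0.123. The genes of this list highest in CPM were *Igfbp5* at 169.7 ± 17.8 CPM in KO mice and 163.2 ± 6.25 CPM in WT mice, *Igfbp4* at 98.6 ± 12.4 and 104.9 ± 5.14 CPM, and the receptor gene *Igf1r* at 97.7 ± 7.80 and 87.5 ± 4.96 CPM (SD, n = 5 each). DESeq2 called *Igf1r* besides *Igfbp3*, where it called 229 of 14344 tested genes. The adjusted p of *Igf1r* in edgeR's test was 0.0646.

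No gene was called in the other pathway lists by edgeR with or without surrogate variables or by DESeq2. Over all 14344 tested genes, edgeR called 0.802% with and 0.209% without surrogate variables, and DESeq2 called 229 genes. Of the other small leucine-rich proteoglycans, 9 of 13 were tested and 2 had an unadjusted p under 0.05. The highest were *Bgn* (biglycan) at 11.8 ± 1.22 CPM in KO mice and 10.8 ± 1.5 CPM in WT mice, *Prelp* at 10.4 ± 2.48 and 11.1 ± 1.46 CPM and *Podn* at 4.52 ± 0.48 and 4.90 ± 0.54 CPM (SD, n = 5 each), and all 9 had a positive r with the mean of the 8 members. Of the retinoic acid genes, 15 of 17 were tested and 2 had an unadjusted p under 0.05. The receptor genes *Rxrb* and *Rxra* and the synthesis gene *Aldh1a1* were highest in CPM, the latter at 50.7 ± 11.2 and 49.1 ± 11.5 CPM (SD, n = 5 each). Of 13 tested periostin partners (its paralog, integrins, matrix partners and TGF-beta ligands and receptors), 4 had an unadjusted p under 0.05, beside 10.6% of all tested genes. The integrin gene *Itgav* was at 104.1 ± 8.53 and 115.2 ± 7.91 CPM, the fibronectin gene *Fn1* at 82.1 ± 12.2 and 63.9 ± 9.62 CPM and the protease gene *Bmp1* at 58.9 ± 5.12 and 59.8 ± 2.21 CPM (SD, n = 5 each).

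Marker lists of other cells were set beside these patterns. The median r of their genes with the mean of the 8 members was 0.596 for 8 border macrophage markers, 0.370 for 7 tested choroid plexus markers, 0.299 for 9 mural markers and 0.280 for 8 endothelial markers. It was 0.114 for 5 ependymal markers, 0.116 for 7 striatal markers, -0.0936 for 5 red blood cell markers and -0.274 for 5 cortical neuron markers. For the summed CPM of a list, in which its highest genes weigh most, the r was 0.822 for border macrophages, 0.839 for choroid plexus, 0.592 for endothelium and 0.335 for mural cells. On the same scale it was 0.260 for ependyma, 0.104 for striatum, -0.0359 for red blood cells and -0.205 for cortical neurons. Border macrophage markers, all present but 4 of 8 under 1 CPM on average and *Ms4a7* at 0 in KO mouse 1, summed to 8.0 to 14.4 CPM in KO mice and 10.04 to 12.5 CPM in WT mice, with *Mrc1*, *F13a1* and *Cd163* highest in CPM. Choroid plexus markers were close to the floor, 11 of 12 under 1 CPM on average and summing to 3.60 to 7.01 CPM in KO mice and 2.85 to 5.07 CPM in WT mice, although none was at 0 in all mice. *Ttr*, the most defining of them, was at 0.477 ± 0.44 and 0.457 ± 0.20 CPM (SD, n = 5 each). The markers highest in CPM were *Kl*, *Kcnj13* and *F5* for choroid plexus, *Flt1*, *Slco1a4* and *Abcb1a* for endothelium, *Rgs5*, *Vtn* and *Pdgfrb* for mural cells and *Foxj1*, *Rarres2* and *Ccdc153* for ependyma. They were *Hbb-bs*, *Hba-a1* and *Hbb-bt* for red blood cells, *Ppp1r1b*, *Pde10a* and *Penk* for striatum and *Slc17a7*, *Tbr1* and *Cux2* for cortical neurons. The part of these cells in the shared variation was not tested.

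Of the markers of other cells, none was called by edgeR with or without surrogate variables, where 0.802% and 0.209% of all tested genes were. DESeq2 called 1, the striatal gene *Gpr6*, beside 229 of 14344 tested genes. An unadjusted p under 0.05 was reached by 1 border macrophage, 1 endothelial, 1 red blood cell, 1 cortical neuron and 2 striatal markers, and by 0 choroid plexus, ependymal and mural markers, beside 10.6% of all tested genes. The r of *Postn* with the summed cortical neuron markers, most of whose CPM came from *Slc17a7*, was 0.714, and their sum lay between 1962 and 2324 CPM in KO mice and 1812 and 2115 CPM in WT mice. With the summed red blood cell markers its r was 0.434, and the sum was 143.1 CPM in KO mouse 5, the mouse with the highest *Postn*. By the median r of single markers the order was the other way, 0.229 for cortical neurons and 0.426 for red blood cells. The part of either in the level of *Postn* was not tested.

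The genes outside the members whose levels were most like the mean of the 9 standardised members, by r over the 10 mice with genotype means subtracted, were *Wbp1* (0.963), *Nat6* (0.952), *Bche* (0.949), *Tbkbp1* (0.948), *Bmp6* (0.942), *Spsb2* (0.935), *Tgfbi* (0.933), *Aebp1* (0.925), *Mrc2* (0.919) and *Slc9a2* (0.919). These are the top of 14335 genes, of which 5% had an r above 0.599. *Tgfbi*, the paralog of *Postn*, was the gene most like the mean of the 8 members without *Postn*, at an r of 0.965, and was at 2.33 ± 0.81 CPM in KO mice and 2.63 ± 0.32 CPM in WT mice (SD, n = 5 each). The most like *Postn* itself were *Zfp827* (0.956), *Grip1* (0.928), RP23-312H15.5 (0.926), *Erg* (0.920) and *Cyp26b1* (0.918), where 5% of genes had an r above 0.655. None of these 5 was among the 10 genes most like the mean of the members, and none was called between genotypes, with log2 fold changes from -0.05 to 0.24.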

How the data were processed

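RNA-seq was performed on 10 PFC samples, from 5 WT mice and 5 *Zbtb16* KO mice. The authors aligned reads to mm10 with STAR (2.7.1a), removed multi-mapped reads and counted the rest with HTSeq (0.9.1, intersection-strict) on exons of Gencode M21 protein-coding genes. They deposited raw counts for 22000 genes. The strand setting is not given in the sources used here, so counts of overlapping genes are uncertain. Samples were grouped by the labels.

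Genotypes were compared with edgeR (4.0.16, R 4.3.3): quasi-likelihood test, TMM, its default filter (14344 genes), genotype and 3 surrogate variables from sva (3.50.0) on log2(CPM + 1) with a seed of 1, Benjamini-Hochberg adjustment and a threshold of 0.05. DESeq2 (1.42.0) was an alternative, as were the number of surrogate variables, RIN, normalization, filter, replicate number, RIN of 9.5 or above alone and leaving out each mouse. The fit on mice with a RIN of 9.5 or above used no surrogate variables. P-values weigh the genotype difference against the spread between mice that is left after the other terms of a fit. Scripts were tested on simulated data. Counts of every pair of libraries differed by more than sampling noise. Correlations, promoters and figures used pandas 2.3.3, numpy 2.4.6 and matplotlib 3.10.9 in Python 3.11.15.

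Positions are from Gencode M21, promoters from RefSeq (GRCm38.p6). The members and lists were chosen with earlier results of these data known. The genes named are the 9 members, every gene called in the edgeR fit above and the 3 highest in CPM of each pathway or marker list (6 of the leptomeningeal list), the 10 and 5 genes most like the members and *Postn*, and *Zbtb16*. Others were named after their values were seen. The list of other transporters beside *Slc6a13* is not reported here.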

Additional observations from a re-analysis of the deposited data

Results flagged for a closer look

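Of 46 groups of 5 mice examined (CPM of the 9 members and summed CPM of 14 lists, each in KO and WT mice), 4 held a mouse far from the other 4, with a gap to the nearest mouse of over 0.71 of the group's range. Chance alone gives about 5% of groups. *Dcn* in KO mouse 2 was at 28.4 CPM, against 6.89 to 8.48 CPM in the other KO mice. Summed red blood cell markers reached 143.1 CPM in KO mouse 5, against 31.7 to 45.7 CPM in the other KO mice. The same sum was 27.7 CPM in WT mouse 2, against 54.8 to 59.3 CPM in the other WT mice. Summed striatal markers reached 483.8 CPM in WT mouse 5, against 245.4 to 254.4 CPM in the other WT mice.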

How the results depend on the processing

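The log2 fold change of *Postn* was positive in all 22 alternatives, from 0.95 to 1.27. *Postn* was the 1 member called in each, except in the fit restricted to RIN values of 9.5 or above, where 0 members were called. That fit held 6 mice and no surrogate variables. *Postn* was chosen with this contrast known and the alternatives reuse the same mice, so they are no further support for its difference. The 8 other members moved by less than the spread between mice in 173 of 176 values, and the other 3 were of *Dcn*. The count of called genes, 115, was 30 without surrogate variables, 35 with 1 and 57 with 2 of them, 38 with RIN in their place, 229 with DESeq2 and 1 among mice with a RIN of 9.5 or above. Chosen after seeing the data, the fits without surrogate variables gave 22 without KO mouse 2 and 13 without KO mouse 3. Leaving out each mouse gave 39 to 249 called genes, 1 member in every fit, a median of the members between -0.19 and 0.09, and 0 or 1 other leptomeningeal gene, the 1 being *Col15a1* without KO mouse 2. *Col15a1* was also the 1 gene of that list called by DESeq2. The cause was not tested.

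The labels do not say whether replicate numbers pair the mice. Same-numbered mice had correlations of their deviations from -0.106 to 0.173. Differently numbered mice were not compared, so these values cannot decide on a pairing. A replicate block gave 24 called genes without surrogate variables and 556 with them. The block fit with surrogate variables had almost as many terms as libraries. Little was left in it to estimate the spread between mice, so its calls are uncertain. They included 1 other leptomeningeal gene, *Col15a1*, besides *Igf1r*, *Igfbp3*, *Fn1* and 7 markers of other cells (*Hbb-bs*, *Fezf2*, *Flt1*, *Abcc9*, *Ppp1r1b*, *Gpr6* and *Pde10a*). *Postn* was the 1 member called in both block fits.

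The median r over all 36 pairs of members, 0.696, over the 28 pairs without *Postn*, 0.758, and over the 8 pairs with it, -0.121, stayed close with a pseudocount of 0.1 and with plain CPM. Without subtracting genotype means the first 2 were 0.636 and 0.679, and as Spearman's rho 0.630 and 0.697. The 3 medians were 0.805, 0.894 and -0.423 with a RIN of 9.5 or above, 0.507, 0.579 and 0.0865 below it, 0.499, 0.593 and 0.298 in WT mice, 0.833, 0.891 and -0.400 in KO mice, and 0.528, 0.605 and 0.380 without KO mice 2 and 4. Leaving out each mouse gave 0.563 to 0.733, 0.636 to 0.795 and -0.285 to 0.332. The lowest value of the first 2 and the highest of the third were those without KO mouse 2. The lower RIN class and each genotype alone were added after seeing the data. *Lum* and *Igf2*, with 41 to 94 counts per mouse, are limited by depth.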
